A study of Homo sapiens with 6 samples.

Results

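A set of 8 genes that carry the RAS to RAF relay was followed in T24, a human bladder cancer line known for its mutant HRAS. They were chosen by name, with earlier results of these data known. They are HRAS and NRAS, the exchange factor gene SOS1 and the GTPase-activating protein genes NF1 and RASA1. The kinase genes ARAF and BRAF and the scaffold gene KSR1 complete the set. All 8 were found among the 60612 gene identifiers of the count table, with 1 identifier each. RNA came from 3 libraries labelled negative control (genotype label WT, lentivirus with a control hairpin) and 3 labelled FOXF1-activated (lentivirus with a hairpin built on a small activating RNA for FOXF1). The stable cells were selected with puromycin. All 6 libraries are of the same line, and the labels do not say whether the 3 of a group are separate cultures, so the p-values measure the spread between libraries, which may be technical.

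RAS proteins are membrane-bound switches that signal when they hold GTP. SOS1 loads them with GTP, NF1 and RASA1 speed the hydrolysis that turns them off, and GTP-bound RAS recruits RAF kinases, which start the MEK and ERK cascade on scaffolds such as KSR1. In urothelial tumours RAS mutation is a recurrent event, and the HRAS of T24 is locked in its active form by its mutation. Gene counts report the amount of RNA, not the amount of GTP-bound protein, and do not separate mutant from normal transcripts.

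Library totals were 72500854 to 77198669 counts. Levels are in CPM, counts scaled to library size with TMM factors. FOXF1 RNA went against its label, at 7.52 ± 0.43 CPM in the controls and 5.27 ± 0.60 CPM in the FOXF1-activated libraries (SD, n = 3 each, log2 fold change -0.51, edgeR adjusted p = 0.0109), so a direction given here is that of the library labels, with negative control as the baseline. Of 15 urothelial markers 9 passed the filter on low counts, led by KRT7, KRT8 and KRT18, while KRT5, UPK1A, UPK3A and TP63 were at 0 in every library. Their summed level was 1720 to 1840 CPM in the controls and 1230 to 1320 CPM in the other libraries. Of the 9 tested, 3 were higher (KRT13, PPARG and FOXA1) and 3 lower (KRT7, KRT8 and ELF3), and KRT7 alone went from 539 ± 41 to 203 ± 16 CPM. KRT13 was near the floor, with 0 counts in the controls and 0.35 ± 0.07 CPM in the FOXF1-activated libraries. ELF3 was low in both groups (2.2 ± 0.3 and 1.2 ± 0.3 CPM). Summed markers of fibroblasts (7 genes) spanned 412 to 464 and 313 to 499 CPM, those of leukocytes (6 genes) 33.3 to 40.8 and 24.4 to 28.4 CPM, and those of endothelium (5 genes) 5.25 to 8.80 and 5.06 to 13.7 CPM. Leukocyte markers moved both ways, CD14 (-2.74 in log2 units) and CD68 (-2.84) being lower and PTPRC (0.38) and CD3E (0.65) higher. Of the fibroblast markers 2 were lower and 0 higher, and of the endothelial ones 1 was higher and 0 lower. In such bulk RNA fewer cells of a type and less RNA per cell cannot be told apart, and the part of these shifts in the results was not tested.

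The stretches upstream of start sites of both RAS genes, both RAF kinase genes and NF1 are shown because the RAF kinase genes moved in opposite directions, NF1 had the largest rise of the 8, and NRAS rose while HRAS fell. The call of HRAS was lost under 12 of 16 alternative settings. Each is the 250 bases before a RefSeq start (GRCh38.p14), written 5′ to 3′ on the strand of the gene, with matches on either strand to the searched motifs in capitals. They lie at chr11:535577-535826 (HRAS, minus strand), chr1:114716772-114717021 (NRAS, minus strand), chrX:47560955-47561204 (ARAF, plus strand), chr7:140924269-140924518 (BRAF, minus strand) and chr17:31094727-31094976 (NF1, plus strand).
HRAS: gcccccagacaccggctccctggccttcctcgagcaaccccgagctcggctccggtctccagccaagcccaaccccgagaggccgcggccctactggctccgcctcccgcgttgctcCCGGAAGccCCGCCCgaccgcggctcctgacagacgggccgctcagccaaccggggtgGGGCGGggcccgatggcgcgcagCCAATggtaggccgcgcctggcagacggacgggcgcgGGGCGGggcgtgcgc
NRAS: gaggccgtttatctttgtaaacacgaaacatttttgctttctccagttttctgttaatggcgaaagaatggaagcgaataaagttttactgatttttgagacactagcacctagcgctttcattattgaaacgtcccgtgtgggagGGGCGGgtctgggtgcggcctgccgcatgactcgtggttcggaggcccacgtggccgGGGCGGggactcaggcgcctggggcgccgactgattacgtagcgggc
ARAF: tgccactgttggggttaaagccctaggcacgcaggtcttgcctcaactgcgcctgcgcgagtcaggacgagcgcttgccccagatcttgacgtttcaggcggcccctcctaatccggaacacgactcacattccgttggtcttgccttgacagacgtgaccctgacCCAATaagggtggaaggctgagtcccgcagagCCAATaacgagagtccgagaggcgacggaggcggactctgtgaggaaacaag
BRAF: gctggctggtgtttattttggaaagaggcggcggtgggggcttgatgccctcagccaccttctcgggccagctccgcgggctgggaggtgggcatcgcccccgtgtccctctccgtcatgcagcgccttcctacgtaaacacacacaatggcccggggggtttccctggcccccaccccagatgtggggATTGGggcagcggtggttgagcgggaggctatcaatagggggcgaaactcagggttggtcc
NF1: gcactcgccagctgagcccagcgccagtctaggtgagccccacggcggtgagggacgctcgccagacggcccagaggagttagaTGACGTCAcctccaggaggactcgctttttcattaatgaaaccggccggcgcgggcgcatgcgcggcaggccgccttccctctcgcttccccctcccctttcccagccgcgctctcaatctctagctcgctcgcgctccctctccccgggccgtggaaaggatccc

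The motifs were the GC box GGGCGG, bound by SP factors, the CCAAT box CCAAT, the TATA box TATAAA, the cAMP response element TGACGTCA, the AP-1 element TGANTCA and the ETS core CCGGAAG. The HRAS stretch, with 77.2% G and C, held 3 GC boxes, 1 CCAAT box and 1 ETS core, and that of NRAS (54.4% G and C) held 2 GC boxes. A GC box stands in 42.55% of 34943 stretches of this length. ARAF held 2 CCAAT boxes and BRAF 1, a motif in 32.04% of all stretches, and the stretch of neither kinase gene held a GC box. As the HRAS and BRAF stretches lie inside their genes, bases before any start of these genes further upstream were not searched. NF1 held 1 cAMP response element, which 1.63% of all stretches hold. None of the 5 stretches held a TATA box (10.75% of all) or an AP-1 element (6.59%). Of the genes not shown, RASA1 held 1 GC box, in a stretch that also lies inside its gene (chr5:87268687-87268936). SOS1 and KSR1 have several RefSeq starts whose matches differ. Such matches describe letters and say nothing of binding in these cells.

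Of the 8 genes, 3 rose (NF1, BRAF and NRAS), 4 fell (ARAF, SOS1, RASA1 and HRAS) and KSR1 did not pass the test, all by the edgeR quasi-likelihood test at an adjusted p under 0.05. Across the whole experiment, 60.7% of 20334 tested genes were called, 29.2% higher and 31.5% lower, so a call by itself does not set these genes apart. Groups did not overlap for 7 of the 8 genes, against 68.8% of all tested genes. The change was larger than the all-gene median size of 0.69 on the log2 scale for 2 of the 8, ARAF and NF1. The median log2 fold change of the 8 was -0.21, beside 0.00 over all tested genes, but it was -0.11 with upper-quartile scaling and -0.04 with GC and length offsets, and the genes went both ways.

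**Figure D1:**
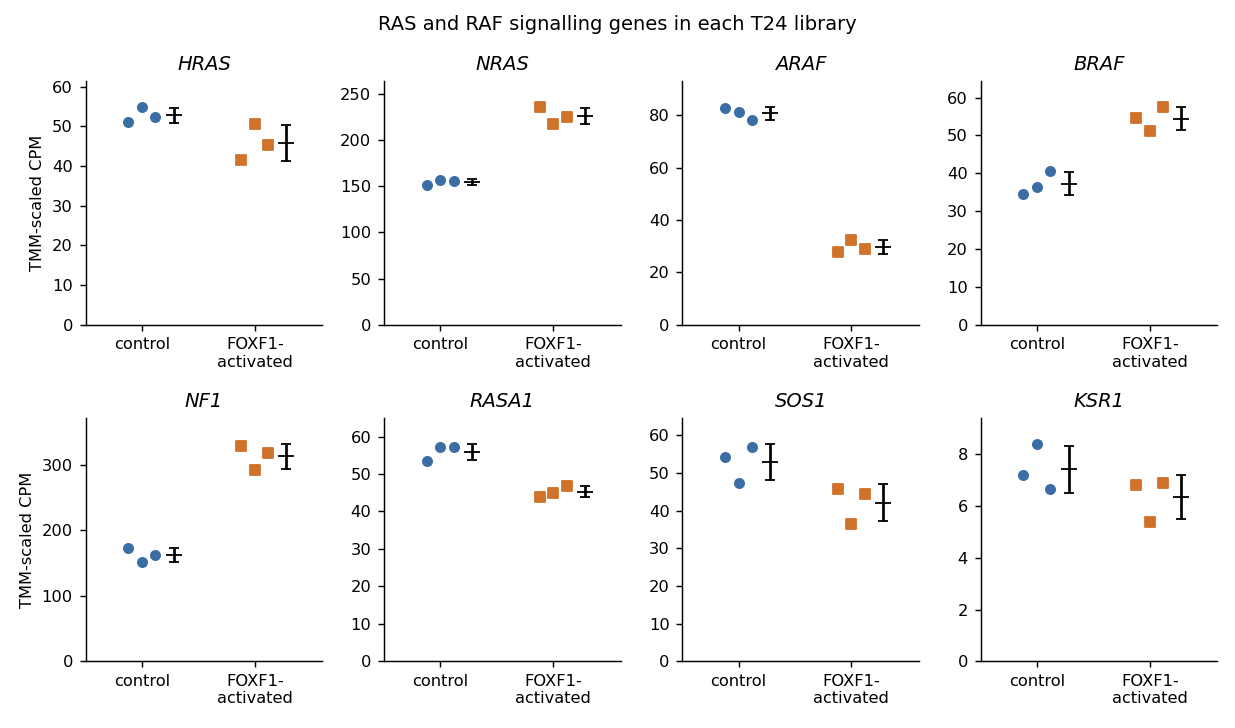
TMM-scaled CPM (vertical axis, from 0) of the 8 genes in each library, with circles for negative control, squares for FOXF1-activated, and the mean with SD beside each group of 3. ARAF drops from about 80.7 to 29.7 CPM and NF1 climbs from 162 to 312 CPM, while the KSR1 groups overlap.

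The GTPase genes parted. NRAS (ENSG00000213281; GRCh38, GENCODE 29, chr1:114704469-114716894, minus strand) encodes a RAS isoform that is palmitoylated and cycles between the Golgi and the plasma membrane. Its level was 151, 157 and 155 CPM in negative control libraries 1, 2 and 3 and 236, 218 and 225 CPM in the FOXF1-activated libraries. Every FOXF1-activated library stood above every control, with a narrow spread in both groups. NRAS rose from 154.6 ± 3.0 to 226 ± 9 CPM, which is 0.55 in log2 units (standard error 0.05, edgeR adjusted p = 1.11e-05).

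HRAS (ENSG00000174775; chr11:532242-537287, minus strand), the isoform that is mutant in this line, was at 51.1, 54.8 and 52.4 CPM in the controls and at 41.6, 50.5 and 45.3 CPM in the FOXF1-activated libraries. The groups did not overlap, but FOXF1-activated replicate 2 came within 1 CPM of the lowest control. Its mean went from 52.8 ± 1.9 to 45.8 ± 4.5 CPM (log2 difference -0.20, standard error 0.08, edgeR adjusted p = 0.0474). The call held under 4 of 16 alternative settings and was lost, for example, without FOXF1-activated replicate 1 (-0.14, edgeR adjusted p = 0.148). With offsets for GC content and transcript length, of which HRAS has 65.8% G and C in its longest transcript, the value was 0.010 (edgeR adjusted p = 0.912).

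SOS1, the exchange factor that receptor tyrosine kinases bring to the membrane through GRB2 (ENSG00000115904; chr2:38981396-39124345, minus strand), was lower. Its level was 54.4, 47.5 and 56.8 CPM in the controls and 45.7, 36.4 and 44.4 CPM in the FOXF1-activated libraries. The groups came close, the second control being 47.5 and the first FOXF1-activated library 45.7 CPM. SOS1 fell from 52.9 ± 4.8 to 42.2 ± 5.0 CPM, which is -0.33 in log2 units (standard error 0.10, edgeR adjusted p = 0.0180). That call was lost without negative control replicate 1 (-0.31, edgeR adjusted p = 0.0517) and without negative control replicate 3 (-0.28, edgeR adjusted p = 0.0654). SOS1-IT1, a transcript within a SOS1 intron on the same strand that shares no exon with it, rose from 0.445 ± 0.263 to 1.86 ± 0.26 CPM (log2 fold change 2.06, edgeR adjusted p = 0.00152).

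The negative regulators moved apart. NF1 encodes neurofibromin, a large RAS GTPase-activating protein and tumour suppressor (ENSG00000196712; chr17:31094927-31382116, plus strand). It was at 173.5, 151 and 162 CPM in the controls and at 328, 291 and 318 CPM in the FOXF1-activated libraries. The lowest FOXF1-activated library was far above the highest control. NF1 rose 1.93-fold, from 162 ± 11 to 312 ± 19 CPM (log2 difference 0.95, standard error 0.07, edgeR adjusted p = 1.88e-06). Its 12 named pseudogenes were listed at 0 in all libraries, so reads shared with them, if any, were not counted there. EVI2B, inside an NF1 intron on the opposite strand with no shared exon, fell (-0.62, edgeR adjusted p = 0.00338), and its neighbour EVI2A was at -0.045 without a call (edgeR adjusted p = 0.857). EVI2A shares 152 bases with NF1 exons. OMG, in the same intron, was not called (edgeR adjusted p = 0.308), and the pseudogene AK4P1 was higher (0.75, edgeR adjusted p = 0.0216), a call lost in 4 of the 6 fits that left out a library (negative control replicates 2 and 3, FOXF1-activated replicates 2 and 3), with no filter and with GC and length offsets (edgeR adjusted p = 0.121).

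RASA1, which encodes the p120 GTPase-activating protein that docks on phosphorylated receptors (ENSG00000145715; chr5:87267888-87391931, plus strand), was lower by a modest amount. Levels were 53.4, 57.2 and 57.1 CPM in the controls and 43.9, 45.0 and 46.8 CPM in the FOXF1-activated libraries. The groups were tight and apart. RASA1 fell from 55.9 ± 2.2 to 45.2 ± 1.5 CPM, which is -0.31 in log2 units (standard error 0.06, edgeR adjusted p = 0.00167). CCNH, the cyclin of the CDK-activating kinase, lies on the opposite strand and shares 771 exon bases with RASA1 (14.7% of its exon length). CCNH rose from 46.4 ± 2.5 to 87.7 ± 2.3 CPM (log2 fold change 0.92, edgeR adjusted p = 8.99e-07), against the direction of RASA1. Its count reached 200% of that of RASA1, and the part of shared reads in the RASA1 level was not tested.

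Among the RAF kinases ARAF carried the largest change of the 8 genes. ARAF, on the X chromosome (ENSG00000078061; chrX:47561100-47571920, plus strand), encodes the RAF isoform with the weakest basal kinase activity. It was at 82.8, 81.1 and 78.1 CPM in the controls and at 27.6, 32.5 and 29.04 CPM in the FOXF1-activated libraries. The groups were separated by more than the whole FOXF1-activated level. ARAF fell 2.71-fold, from 80.7 ± 2.4 to 29.7 ± 2.5 CPM (log2 difference -1.44, standard error 0.07, edgeR adjusted p = 2.13e-07). The neighbouring SYN1, which overlaps 23 bases of its exons on the opposite strand, held 0 counts in the controls and 29 to 37 in the FOXF1-activated libraries, at most 1.75% of the ARAF count.

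BRAF, the RAF isoform with the highest basal activity (ENSG00000157764; chr7:140719327-140924928, minus strand), went the other way. Its level was 34.6, 36.4 and 40.6 CPM in the controls and 54.6, 51.3 and 57.4 CPM in the FOXF1-activated libraries. All FOXF1-activated libraries exceeded all controls. BRAF rose from 37.2 ± 3.0 to 54.4 ± 3.1 CPM, which is 0.55 in log2 units (standard error 0.08, edgeR adjusted p = 1.89e-04), the same size as that of NRAS. NDUFB2 overlaps 1239 exon bases of BRAF on the opposite strand (5.29% of its exon length) and was at -0.23 without a call (edgeR adjusted p = 0.0552). Its count reached 45.8% of that of BRAF, and any reads the genes share were not told apart.

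KSR1, a pseudokinase scaffold that brings RAF, MEK and ERK together (ENSG00000141068; chr17:27456470-27626438, plus strand), was the lowest of the 8. It was at 7.18, 8.39 and 6.63 CPM in the controls and at 6.80, 5.36 and 6.86 CPM in the FOXF1-activated libraries. The groups overlapped. Means were 7.40 ± 0.90 and 6.34 ± 0.85 CPM, and the log2 difference of -0.22 (standard error 0.16) missed the threshold (edgeR adjusted p = 0.249). Its libraries held 380 to 644 counts of KSR1. ENSG00000266728 and ENSG00000266872, which share 432 and 656 bases with KSR1 exons, held 0 counts in every library.

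**Figure D2:**
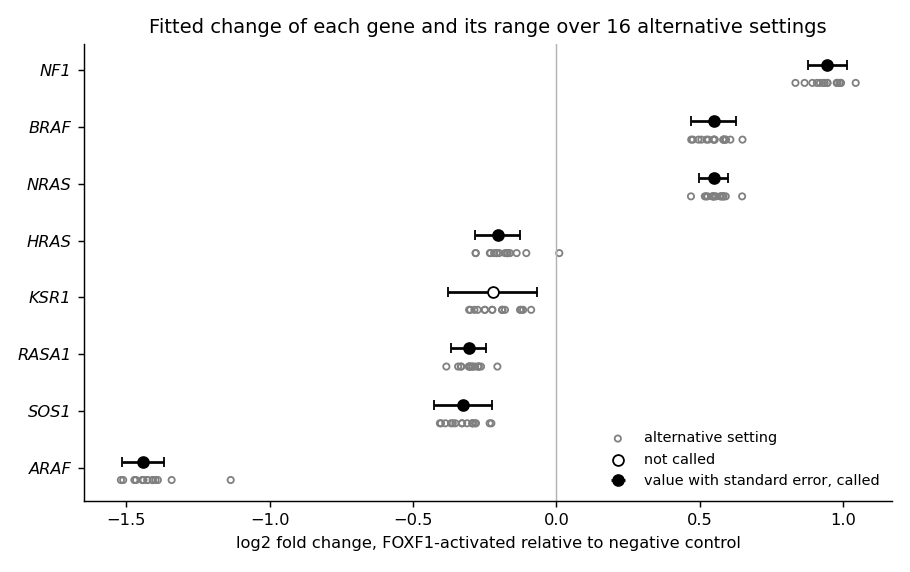
Log2 fold change (horizontal axis) of the 8 genes with its standard error, filled where called, above open grey circles for 16 alternative settings. HRAS spans -0.28 to 0.010 and reaches the zero line, whereas ARAF stays between -1.52 and -1.14 and NF1 between 0.83 and 1.04.

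Levels of different genes were compared as CPM per kb of exon. With the union of annotated exons the controls ran NRAS (34.8 ± 0.7), HRAS (28.5 ± 1.0), ARAF (22.8 ± 0.7), RASA1 (10.7 ± 0.4), NF1 (5.98 ± 0.41), SOS1 (5.71 ± 0.52), BRAF (1.59 ± 0.13) and KSR1 (0.608 ± 0.074) CPM per kb (SD, n = 3). Of these neighbours only NF1 and SOS1 overlapped between libraries. In the FOXF1-activated libraries NRAS stood at 50.8 ± 2.0 and HRAS at 24.7 ± 2.4 CPM per kb, NF1 (11.5 ± 0.7) came next, and RASA1 (8.64 ± 0.28) and ARAF (8.41 ± 0.72) overlapped. By this length ARAF went from place 3 to place 5 of the 8. Lengths matter for this order. With the longest transcript in place of the union HRAS headed the controls (42.8 ± 1.5 against 34.8 ± 0.7 CPM per kb for NRAS), while NRAS headed the FOXF1-activated libraries (50.8 ± 2.0 against 37.1 ± 3.6). ARAF then went from place 3 to place 4. NF1 already stood above RASA1 in the controls (13.1 ± 0.9 against 11.2 ± 0.4 CPM per kb).

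**Figure D3:**
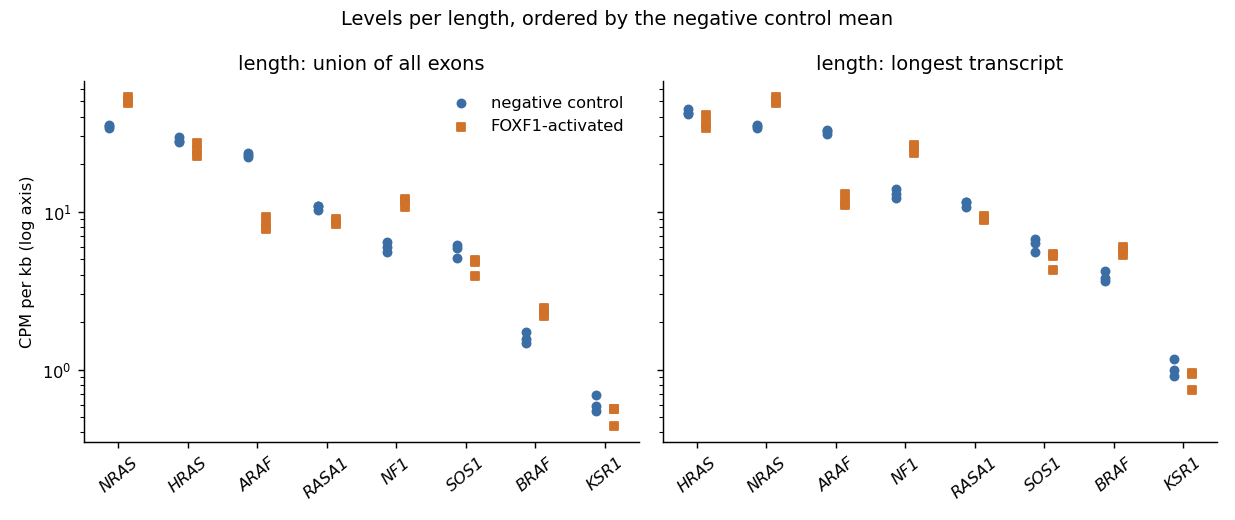
CPM per kb of exon (log axis) of the 8 genes in the 6 libraries, with the union of exons as length on the left and the longest transcript on the right, ordered by the control mean. HRAS and NRAS exchange places in the controls between the panels, and KSR1 is lowest in both.

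Ratios within a library do not depend on the scaling between libraries. The ratio of NRAS to HRAS per kb was 1.23, 1.20 and 1.24 in the controls and 2.36, 1.80 and 2.06 in the FOXF1-activated libraries, a 1.69-fold increase. BRAF to ARAF was 0.0631, 0.0677 and 0.0784 in the controls and 0.298, 0.238 and 0.298 in the FOXF1-activated libraries, a 3.98-fold increase. RASA1 to NF1 went from 1.79 ± 0.19 to 0.752 ± 0.055, and KSR1 to BRAF from 0.386 ± 0.066 to 0.224 ± 0.020 (SD, n = 3). For all 4 ratios the groups were apart, and each two-sided exact permutation test gave p = 0.10 (0.10 adjusted over the 4 ratios), the smallest p that 3 against 3 libraries allow. The fold of a ratio does not depend on the length used, but its level does: with the longest transcript NRAS to HRAS was 0.813 ± 0.015 and 1.38 ± 0.19. RASA1 to NF1 was then 0.86 ± 0.09 in the controls and 0.36 ± 0.03 in the FOXF1-activated libraries, with NF1 the higher in both groups.

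**Figure D4:**
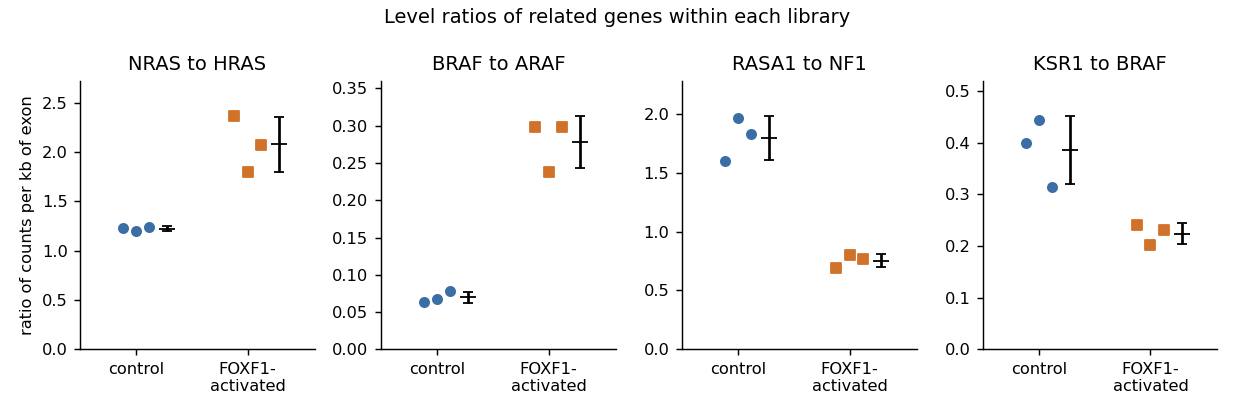
Ratio of counts per kb of exon (vertical axis, from 0) for 4 pairs of genes in each library, with the mean and SD of each group of 3. BRAF to ARAF goes from 0.0697 to 0.278 on average, and NRAS to HRAS from 1.22 to 2.08.

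Among the 8 the closest profiles over the 6 libraries were those of NRAS and BRAF, with a root mean square difference of 0.075 in centred log2 CPM, followed by HRAS and RASA1 (0.093). The most distant were ARAF and NF1 (1.20). Among all tested genes with a mean of at least 5 CPM, those nearest to ARAF were VAMP8 (0.018), SLC44A2 (0.027) and SHFL (0.031), and those nearest to NF1 were TMEM245 (0.021), SH3BGRL2 (0.026) and ARPC5L (0.033). NRAS was nearest to METTL17 (0.021), REXO2 (0.026) and CSNK1G3 (0.027), and HRAS to ADAM19 (0.031), NSMCE1 (0.032) and CENPBD2P (0.033). With only a control and a FOXF1-activated group, near profiles largely restate a like fold change. It was 0.55 for NRAS and for BRAF, and -1.44 for ARAF beside -1.43 for VAMP8. Shared regulation was not tested.

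Other genes of the pathway were read from lists by role. The lists held 90 tested genes, the 8 among them, of which 35 were higher and 32 lower (74.4% called, against 60.7% of all tested genes), with a median log2 fold change of -0.07. Outside the 8, the count was 32 higher and 28 lower of 82 (73.2% called). The lists were chosen with earlier results of these data known and no set test was run. The higher share therefore does not set the pathway apart from other genes.

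Of 10 tested RAS-family GTPases 5 were higher and 3 lower (median 0.14). RIT1, a RAS-related GTPase, rose from 32.9 ± 0.6 to 133 ± 6 CPM (log2 fold change 2.01, edgeR adjusted p = 1.55e-08). RRAS fell from 37.5 ± 5.2 to 9.72 ± 1.69 CPM (-1.95), and MRAS, which joins SHOC2 in a phosphatase complex that activates RAF, from 18.4 ± 1.0 to 7.75 ± 0.83 CPM (-1.25). RALA (0.33), RALB (0.33) and RAP1A (0.35) rose by less.

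Of 7 tested exchange factors 2 were higher and 1, SOS1, lower (median -0.16). The calcium-responsive RASGRF1 (0.80) and the diacylglycerol-responsive RASGRP1 (0.92) rose, both at low levels of 14.1 ± 0.8 and 3.88 ± 1.16 CPM in the FOXF1-activated libraries. SOS2 was at -0.18 without a call (edgeR adjusted p = 0.112). Of 10 GTPase-activating proteins 3 were higher and 2 lower (median -0.14). RASA2 rose from 26.1 ± 0.2 to 59.6 ± 2.2 CPM (1.19), and RASAL2 from 66.4 ± 3.1 to 103.9 ± 6.2 CPM (0.65). DAB2IP was at -0.14 without a call (edgeR adjusted p = 0.122).

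In the list of RAF kinases and scaffolds 4 of 10 were higher and 2 lower (median 0.18). LAMTOR3, a scaffold for MEK1 and ERK1 on late endosomes, rose from 45.6 ± 3.2 to 101.8 ± 9.2 CPM (1.16), and IQGAP1, a scaffold that binds MEK and ERK, fell from 652 ± 33 to 534 ± 21 CPM (-0.29). PEBP1, the RAF kinase inhibitor protein, was at 0.08 without a call (edgeR adjusted p = 0.195). Below RAF, 2 of 7 genes were higher and 4 lower (median -0.38). The MEK genes MAP2K1 (1.17) and MAP2K2 (0.57) rose, whereas the ERK1 gene MAPK3 fell from 66.0 ± 4.2 to 27.8 ± 4.4 CPM (-1.25). The ribosomal S6 kinase genes RPS6KA2 (-2.19), RPS6KA1 (-1.21) and RPS6KA3 (-0.38), whose products ERK activates, fell.

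All 11 receptor-proximal adaptors were called, 6 higher and 5 lower (median 0.72). CRKL rose from 90.0 ± 1.9 to 293 ± 19 CPM (1.71), the FGF receptor adaptor FRS2 by 1.52 and the phosphatase gene PTPN11, whose product SHP2 promotes RAS activation, by 1.16 on the log2 scale. GRB2, the partner of SOS1, rose by 0.72, against the direction of SOS1. SHC1 fell from 518 ± 11 to 249 ± 14 CPM (-1.06), GAB1 was lower at -1.50 and CBLB at -0.88.

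For RAS membrane processing 4 of 10 genes were higher and 4 lower (median -0.04). The subunits of farnesyltransferase, the enzyme that adds the lipid anchor of RAS, parted: FNTA rose from 48.0 ± 5.6 to 65.0 ± 6.1 CPM (0.44) and FNTB fell from 27.2 ± 1.0 to 9.13 ± 0.90 CPM (-1.57). ICMT, which methylates the farnesylated end, fell (-0.45), as did PDE6D, a carrier of farnesylated RAS (-1.25). ZDHHC9 (0.49) and GOLGA7 (0.65), the pair that palmitoylates HRAS and NRAS, rose. Of 15 genes listed under effectors outside RAF 3 were higher and 7 lower (median -0.12). The PI3K subunit genes went both ways, PIK3CD (0.79) and PIK3CB (0.39) being higher and PIK3CA (-0.62) and PIK3R1 (-0.78) lower. RALGDS was lower too (-0.91). A place in this list does not mean that the product itself binds RAS.

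The 10 ERK-dependent transcripts were split, 6 higher and 4 lower (median 0.36). PHLDA1 rose from 155 ± 3 to 389 ± 38 CPM (1.33), the ephrin receptor gene EPHA2 from 196 ± 6 to 405 ± 51 CPM (1.05) and the ETS factor gene ETV5 by 0.53. Another ETS factor gene of the same family, ETV4, fell from 59.1 ± 7.1 to 32.4 ± 3.7 CPM (-0.87), and CCND1, the cyclin that carries growth signals into G1, from 617 ± 15 to 444 ± 18 CPM (-0.47). SPRY4 and DUSP4, feedback inhibitors of the pathway, were higher (1.19 and 1.96), while DUSP6, the ERK phosphatase, was at -0.22 (edgeR adjusted p = 0.0438). The calls of SHOC2, CNKSR3, RASA3, RCE1, LZTR1 and DUSP6 were each lost when a library was left out.

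**Figure D5:**
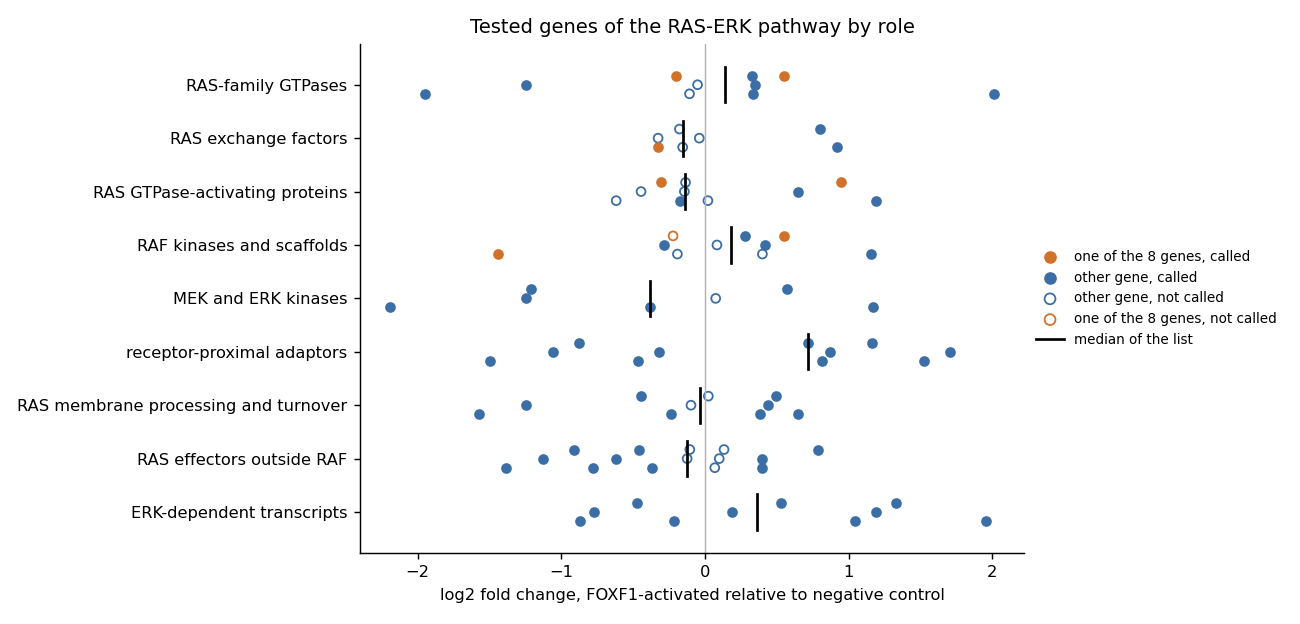
Log2 fold change (horizontal axis) of each tested gene in 9 lists by role, filled where called, with the 8 genes in orange and a black bar at the list median. Every list holds genes on both sides of 0, from RPS6KA2 at -2.19 to RIT1 at 2.01.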

How the data were processed

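RNA of 6 T24 libraries was depleted of ribosomal RNA, made into strand-marked libraries and sequenced, per the labels' protocols. The authors deposited a table of whole-number counts per Ensembl gene, not normalised. The submitters' processing notes name cutadapt 1.9, TopHat2 2.0.4 and GRCh38. The program that counted reads, its strand setting and annotation were not given in the sources read here, so overlapping genes may share reads. Values of 4, 8 and 12 were 2.36, 1.94 and 1.60 times as frequent as neighbouring values, so depth may be overstated.

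Genes were kept by filterByExpr (minimum count 10, minimum total 15; 20334 genes), scaled by TMM and tested by edgeR 4.0.16 (quasi-likelihood, run in R 4.3.3). Benjamini-Hochberg adjustment covered all tested genes at a threshold of 0.05, without covariates. The standard error is the log2 fold change divided by the square root of F. Exact permutation tests used scipy 1.17.1. The fit was tested on simulated data. Symbols matched 60401 identifiers. Spans, exon lengths and G and C content come from GENCODE 29 on GRCh38, and upstream sequences from RefSeq, matched for all 8 genes. Replicate pairs differed beyond sampling noise (chi-square per degree of freedom 19.9 to 33.2).

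The members and lists were chosen with earlier results of these data known. Named were the 8 genes, FOXF1, tested genes overlapping them, pseudogenes bearing their names, up to 4 listed genes with the smallest p in each direction (some left out for length, and a few uncalled or weaker ones added after their values were seen), and the 3 genes nearest in profile. Results for some RAS and RAF family genes are not shown. The settings varied were scalings, filters and tests (limma 3.58.1, DESeq2 1.42.0), a replicate block, counts divided by 4, GC and length offsets, and leaving out each library.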

Additional observations from a re-analysis of the deposited data

How the results depend on the processing

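Under 16 alternative settings NRAS, ARAF, BRAF, NF1 and RASA1 kept their direction and their call, with log2 fold changes of 0.47 to 0.65, -1.52 to -1.14, 0.47 to 0.65, 0.83 to 1.04 and -0.38 to -0.21. KSR1 stayed uncalled (-0.30 to -0.09), and FOXF1 stayed lower and called. HRAS kept its call with library totals only, limma-voom, the replicate block and without FOXF1-activated replicate 2. It lost it with DESeq2's size factors or Wald test (-0.17 each), upper-quartile scaling (-0.10), no filter (-0.23), a stricter one of 1 CPM in 3 libraries (-0.16) and counts divided by 4 (-0.17), turned sign with GC and length offsets (0.010), and spanned -0.28 to -0.14 when a library was left out. SOS1 lost its call with upper-quartile scaling (-0.23) and spanned -0.40 to -0.23 when a library was left out. The cause was not tested.

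Lower calls among exchange factors were 0 with upper-quartile scaling and 2 with library totals only (0 to 1 when a library was left out). Lower calls among GTPase-activating proteins were 1 with upper-quartile scaling or GC and length offsets and 3 with library totals only (1 to 2 when a library was left out). Higher calls among RAF kinases and scaffolds were 2 with library totals only or no filter and 5 with upper-quartile scaling (2 to 3 when a library was left out). Lower calls among RAS-family GTPases ran from 2 to 4. Outside the 8 genes, EVI2A turned sign with upper-quartile scaling (0.056), GC and length offsets (0.012) and in some leave-one-out fits (-0.20 to 0.054), and LZTR1 (0.038), RASA3 (0.0091) and the uncalled DAB2IP (0.096) did so with GC and length offsets. Of 1036 values for single genes outside the 8, 963 kept direction and call, 57 lost the call, 8 gained one and 8 turned sign. The median of the 8 genes ranged from -0.29 to -0.04 over the settings that kept all libraries.

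Calls over all genes numbered 11014 to 12831 with all libraries and 11487 to 12002 with a library left out. The replicate numbers do not pair the libraries: deviations of same-numbered libraries correlated at -0.021 to -0.0010, 0 controls correlated best with their own number, and the replicate block gave 11790 calls against 12351. The control level ratio of NRAS to HRAS was 1.22 with the exon union and 0.813 with the longest transcript. KSR1, with the fewest counts of the 8 genes, stayed uncalled with counts divided by 4 (-0.19, edgeR adjusted p = 0.290). HRAS lost its call there (-0.17, edgeR adjusted p = 0.0663). Values of the other members moved up there too, such as NRAS from 0.55 to 0.58 and ARAF from -1.44 to -1.41. Whether the lost call came from depth or from this shared shift was not tested.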
